A study of Homo sapiens with 4 samples.

Results

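The genes described here are the receptors and enzymes with which a cell detects foreign or misplaced nucleic acid, 2 adaptors that relay their signal, and the interferon that follows. They are DDX58 (RIG-I), IFIH1 (MDA5), DHX58 (LGP2), TLR3, MB21D1 (cGAS), MAVS, TMEM173 (STING), EIF2AK2 (PKR), ADAR and IFNB1. The 10 genes were chosen by symbol with their FPKM values of these same columns in view, so the values below are a description and carry no test. All 10 symbols were found among the 56620 symbols and 63651 rows of the deposited table. DHX58 had a second row, on an alternate patch sequence, which was listed at 0 in both columns.

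The RNA came from BJ-5ta, a telomerase-immortalised line of human foreskin fibroblasts, in a clonal derivative in which doxycycline switches on a FOXA2 transgene. FOXA2 is a forkhead transcription factor of endoderm and liver. The labels name 2 samples without doxycycline, the uninduced group, and 2 samples with 0.5 µg/ml doxycycline, the induced group. All 4 samples carry the transgene and were kept in puromycin and hygromycin B with basic fibroblast growth factor. A mimosine arrest in G1 is described without saying which cultures received it, and the labels do not give the time of induction. The name of the induced column in the table carries a 4D that no label explains. Cells given the drug but lacking the transgene were not analysed here, and clonal selection means that other clones are not represented. The effects of the drug and of FOXA2 therefore cannot be told apart. The table holds 1 FPKM value (fragments scaled to transcript length and to sequencing depth) per gene and group, with a deposited lower and upper bound. There is no value per sample, so no difference has a replicate check and no p-value is given. The words rose and fell are used only where the deposited intervals of both columns lay apart.

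The sensors split by ligand and by place in the cell. RIG-I and MDA5 are helicases that bind double-stranded RNA in the cytosol and pass the signal through their CARD domains to MAVS on mitochondria. LGP2 is a related helicase that lacks those domains and modulates the other two. TLR3 detects double-stranded RNA in endosomes. cGAS detects DNA in the cytosol and makes a cyclic dinucleotide that activates STING on the endoplasmic reticulum. These routes meet at the kinase TBK1 and the transcription factor IRF3, which together with NF-kappaB switch on IFNB1, the interferon made first by fibroblasts. PKR halts translation when it binds double-stranded RNA, and ADAR edits adenosines in such RNA and thereby limits its detection. Several of these genes are themselves interferon-stimulated, so receptor and product form a loop.

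The double-stranded RNA sensors of the RIG-I family and TLR3 were higher in the induced column. The DNA-sensing pair cGAS and STING had nearly the same values in both columns, with wide intervals. Other DNA-binding sensors went either way by value, for example IFI16 (65.9 and 177 FPKM) and XRCC6 (221 and 121 FPKM), both with overlapping intervals. Of the 10 genes, 4 rose (DDX58, IFIH1, DHX58 and TLR3) and 0 fell. Over all 14319 genes at 1 FPKM or more in at least 1 column, 104 rose, or 0.726%, and 65 fell, or 0.454%. Under a looser rule, in which only the difference must have an interval clear of 0, the same 4 members passed as higher and 0 as lower, against 1.26% of all kept genes higher and 1.11% lower. By size alone 7 members were at least 2-fold higher on the log2(FPKM + 1) scale and 0 were at least 2-fold lower, against 9.2% and 6.03% of all kept genes. Because the members were picked on this contrast, nothing is read from these shares. All 10 passed the level filter, TLR3 and IFNB1 through the induced column alone. The median log2 difference of the members was 1.59, and that of all kept genes was 0.05.

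**Figure D1:**
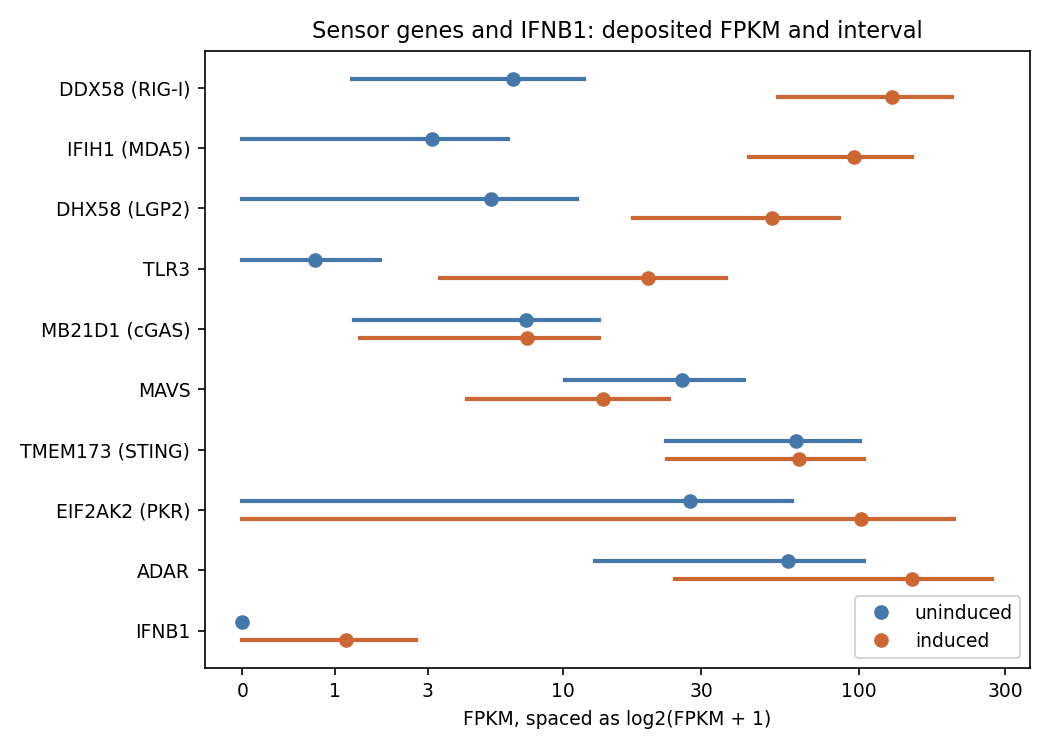
Deposited FPKM (points) and deposited interval (lines) of the 10 genes, uninduced in blue and induced in orange, on an axis spaced as log2(FPKM + 1). The 2 lines lie apart for DDX58, IFIH1, DHX58 and TLR3 and overlap for the other 6 genes.

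The targeted gene checked the labels: FOXA2 had 4.82 FPKM without doxycycline and 104 FPKM with it, with intervals apart. The fibroblast identity of the RNA showed in both columns: all 10 fibroblast markers were kept, for example VIM at 2098 and 905 FPKM and COL3A1 at 125 and 445 FPKM. Of the 10, 4 had a higher and 6 a lower value induced, and 0 rose or fell. Their summed level was 4934 FPKM uninduced and 3103 FPKM induced. The 8 leukocyte markers summed to 1.99 FPKM uninduced and 3.93 FPKM induced, with CD3E and NKG7 listed at 0 in both. The 2 that passed the filter had higher values induced, with overlapping intervals: PTPRC (0.547 and 1.30 FPKM) and CD14 (0.823 and 2.15 FPKM). Of 4 plasmacytoid dendritic cell markers LILRA4 and CLEC4C were listed at 0 in both and IL3RA was at 0.0529 and 0.0154 FPKM, while TCF4, which many other cell types also express, was at 35.1 and 53.2 FPKM. Keratinocyte markers summed to 0.105 and 0.193 FPKM, and endothelial markers to 0.0456 and 0.0579 FPKM. Melanocyte markers summed to 0.801 and 1.59 FPKM, with only PMEL kept, at 0.753 and 1.46 FPKM with overlapping intervals. In bulk RNA, fewer cells of a type and less RNA per cell cannot be told apart.

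The RIG-I-like receptor family was low in uninduced cells and rose in all 3 members. DDX58 (ENSG00000107201, hg19 chromosome 9, 32455300 to 32526322) was at 6.59 FPKM uninduced (interval 1.27 to 11.9) and at 128 FPKM induced (54.2 to 202), a ratio of 19.4. The nearest bounds of its intervals stood 4.55-fold apart. Uninduced, 33.9% of kept genes had a lower FPKM than DDX58, and induced 95.8% did. IFIH1 (ENSG00000115267, chromosome 2, 163123589 to 163175213) was at 3.13 FPKM (0 to 6.28) and 96.4 FPKM (43.4 to 149), a ratio of 30.8, with the nearest bounds 6.91-fold apart. This was the widest separation among the 10 genes, and 22 of the 14319 kept genes had a larger log2 difference. DHX58 (ENSG00000108771, chromosome 17, 40253422 to 40264751) was at 5.42 FPKM (0 to 11.3) and 51.7 FPKM (17.6 to 85.8), a ratio of 9.53. Its nearest bounds were 1.56-fold apart, the closest of the 4 genes that rose.

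Within the family, the levels per length stood in other ratios after induction. Uninduced, DDX58 and DHX58 had similar levels per length, at a ratio of 1.22, and IFIH1 was at 0.577 times DHX58. Induced, DDX58 was at 2.48 times and IFIH1 at 1.87 times the level of DHX58, and the ratio of DDX58 to IFIH1 went from 2.10 to 1.33. No interval was computed for these ratios, and in each column the intervals of the 3 genes overlapped along the order of their levels. MAVS, the adaptor that RIG-I and MDA5 share (ENSG00000088888, chromosome 20, 3827487 to 3849280), was the only member with a lower value in the induced column. It was at 25.9 FPKM uninduced (interval 10.2 to 41.7) and 13.9 FPKM induced (4.37 to 23.4), and these intervals overlapped. The 3 helicases summed to 15.1 FPKM uninduced and 276 FPKM induced. That sum was 0.583 times the MAVS level uninduced and 19.9 times the MAVS level induced. No interval was computed for this ratio either, and part of its difference comes from the lower induced MAVS value, whose intervals overlapped.

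TLR3, the endosomal sensor (ENSG00000164342, chromosome 4, 186990306 to 187009223), rose from near the detection filter. It was at 0.725 FPKM uninduced (interval 0 to 1.81) and 19.9 FPKM induced (3.38 to 36.3). The ratio was 27.4, and the nearest bounds were 1.86-fold apart. Uninduced, 5.58% of kept genes lay below TLR3, and induced 59.0% did.

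The DNA-sensing pair had nearly equal values in both columns, with wide intervals. MB21D1, which encodes cGAS (ENSG00000164430, chromosome 6, 74078278 to 74161999), was at 7.37 FPKM uninduced (interval 1.31 to 13.4) and 7.40 FPKM induced (1.40 to 13.4). The interval of its difference ran from -8.49 to 8.55 FPKM, so a change smaller than its own level could not be seen. Its locus span in the table covers 7 other rows, each listed below 0.1 FPKM in both columns. TMEM173, which encodes STING (ENSG00000184584, chromosome 5, 138855119 to 138862520), was at 61.9 FPKM (22.8 to 101) and 63.4 FPKM (23.0 to 104). The interval of its difference ran from -54.7 to 57.7 FPKM. STING was the highest of the 10 genes before induction, and its level per length was 8.40 times that of cGAS uninduced and 8.57 times induced.

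PKR and ADAR, which act on double-stranded RNA without starting the MAVS route, had higher values in the induced column with overlapping intervals. EIF2AK2 (ENSG00000055332, chromosome 2, 37311594 to 37384208) was at 27.4 FPKM uninduced (interval 0 to 60.4) and 101 FPKM induced (0 to 205), a ratio of 3.69. With an induced lower bound of 0 it could not have been said to rise at any uninduced value. ADAR (ENSG00000160710, chromosome 1, 154554538 to 154600475) was at 58.3 FPKM (13.0 to 104) and 149 FPKM (24.5 to 273), a ratio of 2.55. The interval of the difference included 0 for both, from -35.0 to 183 FPKM for EIF2AK2 and from -41.7 to 223 FPKM for ADAR. The locus span of EIF2AK2 also holds GPATCH11, at 14.2 and 7.78 FPKM, and AC007899.3, at 0.651 and 3.31 FPKM, and the libraries do not keep strand.

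For their level, these 2 genes had the widest deposited intervals of the 10 in the induced column. The induced upper bound lay 102% above the FPKM for EIF2AK2 and 83.5% above it for ADAR. Widths in percent of the FPKM were narrower for DDX58 (57.7%) and IFIH1 (54.9%), about the same as ADAR for TLR3 (83.0%) and MB21D1 (81.0%), and wider for IFNB1 (127%), and low genes have wider intervals in general. Among the 200 kept genes nearest to each in induced FPKM, 89.5% had a narrower interval than EIF2AK2 and 85.5% a narrower one than ADAR. For the other 8 members this share ran from 8.5% for IFIH1 to 42% for TLR3. The table annotates 6 transcription start sites for EIF2AK2 and 11 for ADAR, against 4 for DDX58 and 3 for IFIH1. TMEM173 has 14 and an induced width of 63.7%. The part of start sites in these widths was not tested.

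**Figure D2:**
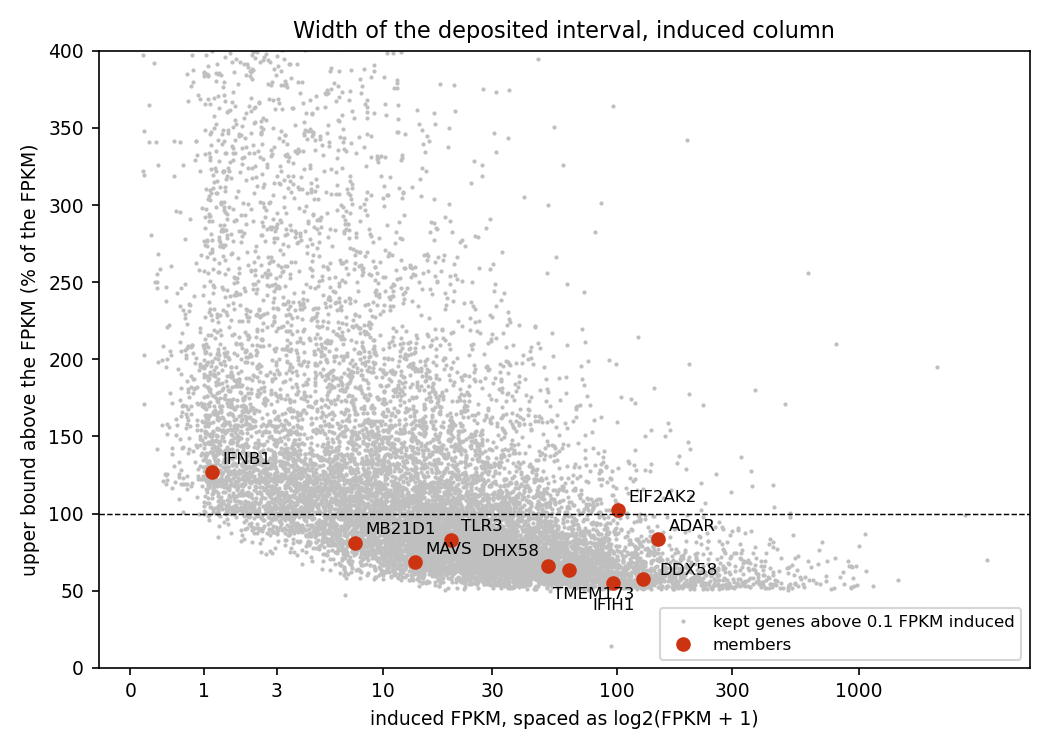
Width of the deposited interval in the induced column, as the distance of the upper bound above the FPKM in percent of the FPKM, against induced FPKM (spaced as log2(FPKM + 1)), for kept genes above 0.1 FPKM (grey, 13230 drawn and 1015 beyond the upper limit of 400%) and the 10 members (red). EIF2AK2 (102%) and IFNB1 (127%) lie above the dashed line at 100%, where a symmetric interval reaches 0, ADAR, TLR3 and MB21D1 lie between 81.0% and 83.5%, and IFIH1 is lowest at 54.9%.

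IFNB1, the product of these routes (ENSG00000171855, chromosome 9, 21077104 to 21077943), was listed at 0 uninduced, with both bounds at 0. Induced it was at 1.17 FPKM (interval 0 to 2.67). The intervals overlapped, so IFNB1 is not said to rise, and no ratio is given against a value listed at 0. Its induced level was above that of 5.01% of kept genes. Among 21 other interferon genes in the table, 1 passed the filter. This was IFNE, an epithelial type I interferon, at 1.50 FPKM (0 to 5.62) and 0.861 FPKM (0 to 3.80). With both lower bounds at 0, IFNE could not have been said to rise or fall. IFNA1 was at 0 and 0.198 FPKM, IFNW1 at 0 and 0.0394 FPKM, and IFNL1, a type III interferon, at 0 and 0.0423 FPKM. The remaining 17, among them IFNG, IFNK, IFNL2 and IFNL3, were listed at 0 in both columns.

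In the order of levels per length, the uninduced column ran TMEM173, ADAR, EIF2AK2, MAVS, MB21D1, DDX58, DHX58, IFIH1, TLR3 and IFNB1. The induced column ran ADAR, DDX58, EIF2AK2, IFIH1, TMEM173, DHX58, TLR3, MAVS, MB21D1 and IFNB1. In both columns every neighbouring pair in these orders had overlapping intervals. By value DDX58 thus moved from rank 6 to rank 2 and IFIH1 from 8 to 4, while MAVS moved from 4 to 8 and MB21D1 from 5 to 9.

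**Figure D3:**
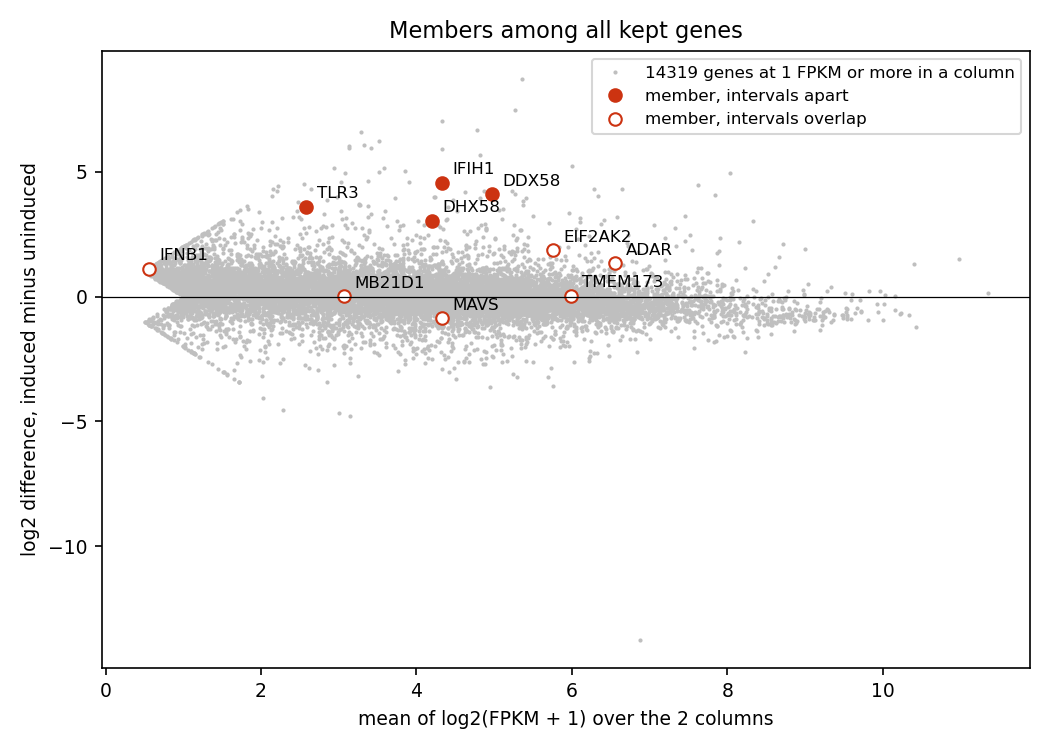
Log2 difference (induced minus uninduced, log2(FPKM + 1)) against the mean log2 level of the 2 columns for 14319 kept genes (grey) and the 10 members (red, filled where intervals lie apart). IFIH1, DDX58, TLR3 and DHX58 lie between 3.04 and 4.56, TMEM173 and MB21D1 near 0, and MAVS at -0.86.

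The promoter letters of the members are shown because IFIH1, TLR3 and EIF2AK2 hold the interferon motif that was searched by plan. DDX58 and IFNB1 matched only patterns added after the sequences had been seen. For DHX58, which also rose, no promoter sequence was given. RefSeq promoter windows on GRCh38.p14, from 250 bases before to 50 bases after a start site, were given for 7 of the 10 genes, with 3 windows for ADAR. The table did not hold DHX58, TMEM173 and MB21D1. The interferon-stimulated response element is the site of the STAT and IRF factors that interferon activates, and its core was searched as GAAANNGAAA on both strands. It matched in IFIH1, TLR3 and EIF2AK2, 3 of the 7 genes. By window it matched in 3 of the 9 windows of these 7 genes and in 3.57% of all 35116 windows in the table. A form with a 1-base spacer, GAAANGAAA, was a search added after the sequences had been seen. It matched in DDX58 alone among the 7, in 1 of the 9 windows, and in 3.12% of all windows. In the stretches below, all written 5′ to 3′ along the gene, capitals mark these matches, as read on either strand, and in IFNB1 the match of an NF-kappaB pattern.

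DDX58, chr9:32526361-32526429, minus strand, -233 to -165 from the start site: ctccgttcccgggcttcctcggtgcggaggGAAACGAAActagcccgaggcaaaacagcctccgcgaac
IFIH1, chr2:162318798-162318873, minus strand, -189 to -114, holding 2 overlapping matches of the reverse strand: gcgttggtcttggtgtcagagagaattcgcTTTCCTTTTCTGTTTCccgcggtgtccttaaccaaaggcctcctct
IFIH1, chr2:162318666-162318735, minus strand, -51 to 19: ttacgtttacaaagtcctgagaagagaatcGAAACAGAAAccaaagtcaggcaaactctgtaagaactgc
TLR3, chr4:186069122-186069175, plus strand, -34 to 20, reverse-strand match: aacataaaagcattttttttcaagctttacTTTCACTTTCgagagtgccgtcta
EIF2AK2, chr2:37156961-37157016, minus strand, -36 to 20: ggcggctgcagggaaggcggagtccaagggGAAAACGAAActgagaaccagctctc
IFNB1, chr9:21077969-21078038, minus strand, -96 to -27: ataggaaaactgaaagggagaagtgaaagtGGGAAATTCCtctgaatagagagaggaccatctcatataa

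The match lay at the start site itself in TLR3 (-4 to 6) and EIF2AK2 (-6 to 4), and at -21 to -12 in IFIH1, with 2 further IFIH1 matches between -159 and -144. In DDX58 the 1-base-spacer form lay at -203 to -195. In IFNB1 the capitals at -66 to -57 are the element known as positive regulatory domain II, which binds NF-kappaB, and the GAAA repeats just upstream of it belong to the elements known to bind IRF factors. A 10-base NF-kappaB pattern was likewise added after the sequences had been seen. It matched in IFNB1, DDX58 and IFIH1, in the last 2 on the reverse strand at -76 to -67. By window it matched in 3 of the 9 windows of the 7 genes and in 11.3% of all windows. A 9-base form of that pattern matched in 0 of the 7 genes and in 12.3% of all windows. The forkhead cores TGTTTAC and TATTTAC matched in 0 of the 7 and in 5.97% of all windows, and the AP-1 core TGACTCA in 0 of the 7 and in 4.95%. MAVS and the 3 ADAR windows held none of the patterns. A match is a description of letters in these windows, and no factor binding was measured here.

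**Figure D4:**
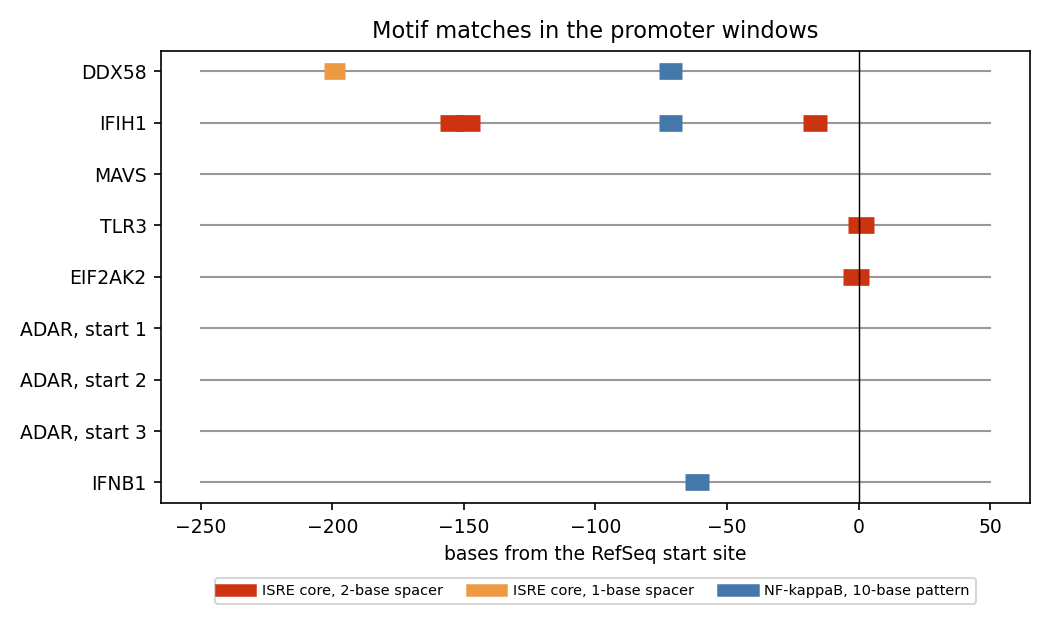
Matches of the response element core with a 2-base spacer (red) or a 1-base spacer (orange) and of the 10-base NF-kappaB pattern (blue) in the promoter windows of 7 members, against distance in bases from the RefSeq start site. Matches lie at the start site in TLR3 and EIF2AK2, at 3 places in IFIH1 and in none of the MAVS and ADAR windows.

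The list counts that follow stand beside 0.726% of all kept genes that rose and 0.454% that fell. Of the 14319 kept genes, 7187 had an induced lower bound of 0 and could not have been said to rise. A count of 0 or 1 in a list is therefore not read as a result about that list. The first list holds genes between the sensors and IFNB1 in the signalling chain. Of 23 kept adaptors, kinases, ubiquitin ligases and transcription factors 1 rose and 0 fell, and their median log2 difference was 0.20. The gene that rose was IRF7, the interferon-inducible partner of IRF3, from 6.02 FPKM (interval 0 to 12.4) to 74.0 FPKM (29.3 to 119). IRF3 was at 48.8 and 43.3 FPKM, TBK1 at 20.4 and 24.1 FPKM, and RELA, the NF-kappaB subunit, at 47.2 and 48.2 FPKM, each with overlapping intervals. TICAM1, the adaptor of TLR3, was at 11.0 and 14.5 FPKM, and TRIM25, a ubiquitin ligase of RIG-I, at 25.0 FPKM (0.514 to 49.5) and 69.2 FPKM (0.236 to 138). MYD88, the adaptor of the other endosomal Toll-like receptors, was at 19.7 FPKM (5.19 to 34.1) and 65.7 FPKM (30.6 to 101). It passed the looser rule only.

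Among other sensors and co-sensors 0 of 17 kept genes rose or fell, with a median of -0.10. By the mean of both columns the highest were HMGB1, a chromatin protein that binds nucleic acid, at 305 and 118 FPKM, and XRCC6, the DNA end-binding Ku70, at 221 and 121 FPKM, both with overlapping intervals. With overlapping intervals, 4 passed the looser rule as higher induced: DDX60 (6.93 and 50.9 FPKM), ZNFX1 (13.7 and 56.5 FPKM), UNC93B1, which escorts endosomal Toll-like receptors (16.4 and 63.4 FPKM), and IFI16, a DNA-binding PYHIN protein (65.9 and 177 FPKM). AIM2, a DNA sensor of the inflammasome, was at 0.0203 and 3.87 FPKM with overlapping intervals. TLR7 and TLR8 were listed at 0 in both columns.

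Enzymes that remove nucleic acid ligands had a median of 0.98, and 1 of 15 kept rose. SAMHD1, which degrades nucleotides for DNA synthesis, rose, with 13.6 FPKM uninduced (interval 4.59 to 22.5) and 70.1 FPKM induced (31.2 to 109). PNPT1, a mitochondrial RNA exonuclease, passed the looser rule only (19.1 and 58.6 FPKM). TREX1, the cytosolic DNA exonuclease, was at 15.1 FPKM (0 to 34.4) and 56.5 FPKM (5.79 to 107). RNASEH2A, of the enzyme that removes ribonucleotides from DNA, was at 53.4 and 18.4 FPKM with overlapping intervals. Of 16 kept negative regulators 1 rose, with a median of 0.30. It was USP18, which removes ISG15 from proteins and dampens interferon signalling, from 3.72 FPKM (0.0934 to 7.35) to 73.8 FPKM (33.4 to 114).

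Genes commonly switched on together with IFNB1 through IRF3 and NF-kappaB were above 0 in all 14 kept cases, with a median of 2.07, and 2 rose. These were RSAD2, the antiviral enzyme viperin (0.107 to 67.8 FPKM), and ISG15 (40.9 to 928 FPKM), both also direct targets of interferon signalling. By size alone 10 of the 14 were at least 2-fold higher induced, against 9.2% of all kept genes. CCL5, ICAM1, TNFSF10 and RSAD2, all among these 10, passed the filter through the induced column alone, which fixed the sign of their difference. The list was also written with earlier results of these data known, so nothing is read from its counts or its median. IFIT1 was at 21.3 and 445 FPKM, IFIT2 at 8.36 and 158 FPKM, and IFIT3 at 19.0 and 326 FPKM. Each of these had an induced lower bound of 0 and so could not have been said to rise. The chemokine CCL5 was at 0.0256 and 1.95 FPKM, with overlapping intervals. CXCL10 was at 0 and 0.123 FPKM, under the filter, and TNF was listed at 0 in both columns in all of its 8 rows, 7 of them on alternate haplotype sequences. IL6 was at 3.53 FPKM (interval 0 to 7.55) and 22.4 FPKM (2.43 to 42.4).

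Among relatives of PKR and ADAR, 0 of 16 kept genes of double-stranded RNA binding and eIF2alpha phosphorylation rose or fell, with a median of -0.11. By the mean of both columns the highest was EIF2S1, the eIF2alpha substrate of PKR, at 169 and 90.6 FPKM. The other eIF2alpha kinases EIF2AK1, EIF2AK3 and EIF2AK4 were at 68.4 and 80.3, 10.0 and 16.4, and 45.2 and 34.7 FPKM. ADARB1, the second editing enzyme, was at 4.05 and 1.67 FPKM. None of 19 kept partners of STING and MAVS rose or fell (median -0.0050), with SSR2 at 257 and 182 FPKM and SURF4 at 206 and 136 FPKM. In the list of endosomal processing 2 of 12 rose (median 0.37), both lysosomal proteases that can cleave Toll-like receptors. CTSK rose from 77.6 to 430 FPKM and LGMN from 25.0 to 168 FPKM. CTSS was at 1.95 FPKM (interval 0 to 4.57) and 35.5 FPKM (1.62 to 69.3).

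**Figure D5:**
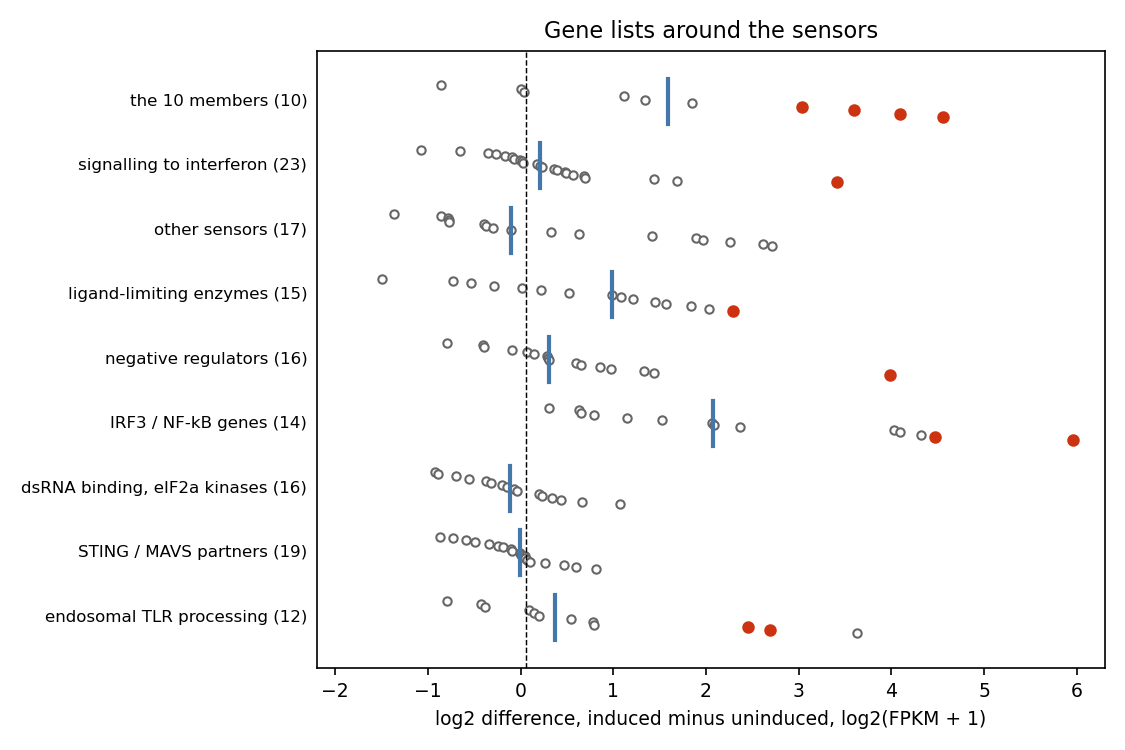
Log2 difference (induced minus uninduced, log2(FPKM + 1)) of each kept gene in the member set and in 8 lists around it, with list sizes in brackets. Filled red points have intervals that lie apart, blue bars are list medians, and the dashed line is the median of all kept genes, 0.05. The highest list median, 2.07, is that of genes commonly switched on together with IFNB1 (IRF3 / NF-kB genes). Some of them passed the filter through the induced column alone. What controls these genes here was not tested.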

How the data were processed

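The submitters' processing notes name TopHat as aligner and hg19 as build, without a version; the program behind the values is not stated. Per the file headers, the deposited values are FPKM with lower and upper bounds. Neither the level of those bounds nor whether both samples of a group were combined is recorded. The uninduced and the FOXA2 columns were taken by their names, and 3 value columns of 1 other condition were not used. No read totals are given, so depth is unknown; the FPKM sums were 553536 uninduced and 482743 induced.

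Rows at 1 FPKM or more in at least 1 column were kept (14319), and 3 with malformed bounds were never counted as risen or fallen. Log2 differences use a pseudocount of 1, which makes changes of low genes look smaller. The interval of a difference adds both upper half-widths in quadrature. Deposited starts count from 0, and 1 was added. The members, lists and rule for named genes (all members, FOXA2, interferon genes above 0, and per list up to 4 genes that rose or fell, or the 2 highest) were chosen with earlier results of these data known. A list gene that the rule names is not reported here. Other list genes named were chosen after their values were seen. Promoters are RefSeq sequences of GRCh38.p14, matched by Ensembl ID and symbol. Python 3.11.15, pandas 2.3.3 and numpy 2.4.6 were used.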

Additional observations from a re-analysis of the deposited data

How the results depend on the processing

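No paired analysis was possible because each group has a single deposited value per gene, and fits leaving out a replicate were not run for the same reason. DDX58, IFIH1, DHX58 and TLR3 rose under each of the scalings run and also met the 2-fold rule. A gene whose symmetric intervals lie apart always passes the interval of the difference, so their passing that rule adds nothing. A pseudocount does not enter the interval rule and a filter only removes genes, so neither bears on these calls. Among the members' log2 differences, that of MB21D1 alone reversed, to -0.17 after quantile normalization. The 2-fold rule gave 7 members higher, adding EIF2AK2, ADAR and IFNB1, 33 list genes higher and 3 lower (7 and 0 by the interval rule), and 1317 of all kept genes higher and 863 lower. The interval of the difference gave 13 list genes higher, and 180 of all kept genes higher and 159 lower. With equal FPKM sums the overall median shifted from 0.05 to 0.23, and TMEM173 lay at 0.23 and MAVS at -0.67. The IFNB1 difference rested on the pseudocount: 1.12 with 1, 3.67 with 0.1 and 6.89 with 0.01. Precision is limited by the deposited widths, with a median upper half-width of 99.97% of the FPKM over kept genes in the induced column.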
